A study of Homo sapiens with 10 samples.

Results

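This report describes the D-type cyclins, the kinases they activate and the inhibitors of those kinases in the human mammary epithelial line MCF10A. The members were the 10 genes with the symbols CCND1, CCND2, CCND3, CDK4, CDK6, CDKN1A, CDKN1B, CDKN1C, CDKN2A and CDKN2B, taken by symbol out of the 60168 genes in the files. Each symbol matched 1 gene identifier. Poly(A) RNA was sequenced from MCF10A cells carrying an empty vector (control, 4 libraries), a vector for TRAM2 (MCF10A-TRAM2, 4 libraries) or a vector for YAP5SA (MCF10A-YAP5SA, 2 libraries). MCF10A is a spontaneously immortalised, non-transformed line. TRAM2 is a protein of the endoplasmic reticulum. YAP5SA is a form of the transcriptional co-activator YAP whose inhibitory serine sites are replaced, so that it stays active.

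All cells were transduced with lentivirus, taken through antibiotic selection and collected at 70 to 80% confluence. They grew in medium with 5% horse serum, 10 ng/ml EGF, 10 μg/ml insulin and 0.5 μg/ml hydrocortisone, so every group received growth factors that act on this pathway. TRAM2 was placed in a pCDH-CMV-MCS-EF1-Puro vector and YAP5SA in a pLenti backbone with blasticidin resistance. The sources used here do not name the control vector's backbone, so vector and transgene effects cannot be told apart. The submitters' design text speaks of 3 biological replicates per condition, while 4, 4 and 2 libraries were labelled. Over genes with whole counts and a pair mean of at least 50, a chi-square test found no difference beyond sampling noise between control libraries A and C (chi-square per degree of freedom of 1.025, p = 0.1555) or B and D (1.031, p = 0.1098), while the other control pairs gave 1.123 to 1.235. Over all genes of that level, estimated counts that are not whole included, the same pairs did differ by the chi-square test. A and C gave 1.229 over 10883 genes and B and D 1.223 over 10563 genes, below the other control pairs at 1.421 to 1.492. A and C, and B and D, were summed, so that control counted as 2 samples and the comparison rested on 8. With the 10 libraries kept separate, 2, 0 and 3 members were called in YAP5SA against control, TRAM2 against control and YAP5SA against TRAM2, as with the sums. The deposited files carry 1 of 2 run numbers: A and B of every group have the lower (called run 1 here) and C and D the higher (run 2). The labels name no run, and what a run covered is not stated. Nothing in the labels ties a letter to a separate culture, so p-values measure the spread between these samples, which may be technical.

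Library totals ran from 8489854 to 16314438 estimated counts. The vectors were seen in the RNA: YAP1 stood at 187 CPM (counts scaled to a common library total after TMM normalization) in both control samples and at 337 to 342 CPM in MCF10A-YAP5SA, and TRAM2 at 28.4 to 28.9 CPM in control and 250 to 611 CPM in MCF10A-TRAM2. TRAM2 also lay at 242 to 247 CPM in MCF10A-YAP5SA. Of 7 mammary epithelial markers, not all of them particular to basal cells, all had counts in every group. Their summed level was 2910 to 2940 CPM in control, 2670 to 3120 CPM in MCF10A-TRAM2 and 1890 to 1930 CPM in MCF10A-YAP5SA. Against control, 4 of the 7 fell in MCF10A-YAP5SA (CDH1, EPCAM, KRT5 and TP63), and TP63 lay at only 0.0841 to 0.155 CPM there. The basal keratin gene KRT17 rose, from 273 to 453 CPM, and KRT14 and LAMB3 did not pass the thresholds given below. Over all genes tested 14.1% fell and 15.3% rose by the same thresholds. Their part in the results below was not tested. In bulk RNA, fewer cells of a kind and less RNA per cell cannot be told apart.

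Progression from G1 into S phase is governed by this group of genes. Cyclins D1, D2 and D3 (CCND1, CCND2, CCND3) bind the kinases CDK4 and CDK6, and the complexes phosphorylate the RB protein, which then releases E2F factors. The INK4 inhibitors p16INK4a and p15INK4b, from CDKN2A and CDKN2B, bind CDK4 and CDK6 themselves. The CIP/KIP inhibitors p21, p27 and p57 (CDKN1A, CDKN1B, CDKN1C) restrain cyclin E-CDK2 and also bind cyclin D complexes. MCF10A cells are known to lack the CDKN2A and CDKN2B locus, and CCND1 is often described among the genes that answer to YAP.

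In MCF10A-YAP5SA the cyclin D1 gene CCND1 rose by a factor of 1.54 over control and the p57 gene CDKN1C fell to 0.177 of control. These were the only members called, that is, with a Benjamini-Hochberg adjusted p under 0.05 in edgeR's quasi-likelihood test over all 15768 genes tested and an absolute log2 fold change over 0.5. CCND2, CDKN2A and CDKN2B had no counts in any of the 10 libraries. The remaining 5 members, CCND3, CDK4, CDK6, CDKN1A and CDKN1B, were expressed and not called against control. No member was called between MCF10A-TRAM2 and control.

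Read against the background, 7 of 10 members passed the filter on low counts, and in YAP5SA against control 2 of these 7 were called, 1 in each direction, where 29.4% of all genes tested were called (15.3% higher and 14.1% lower). At an adjusted p under 0.05 alone, 4 of the 7 passed (CCND1, CCND3, CDK6 and CDKN1C). The members' median log2 fold change was 0.04, against -0.01 over all genes tested. In YAP5SA against TRAM2, 3 of the 7 were called, 2 higher and 1 lower, where 29.4% of all genes were called (14.9% higher, 14.6% lower). In TRAM2 against control none of the 7 was called by edgeR and 2 had an unadjusted p under 0.05, where 0.0571% of all genes were called (0.0317% higher and 0.0254% lower). DESeq2 called none there either. The 3 comparisons share samples, so their values are set side by side and no likeness between them is read. CDKN1C passed the filter through control and MCF10A-TRAM2, where it was higher.

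**Figure D1:**
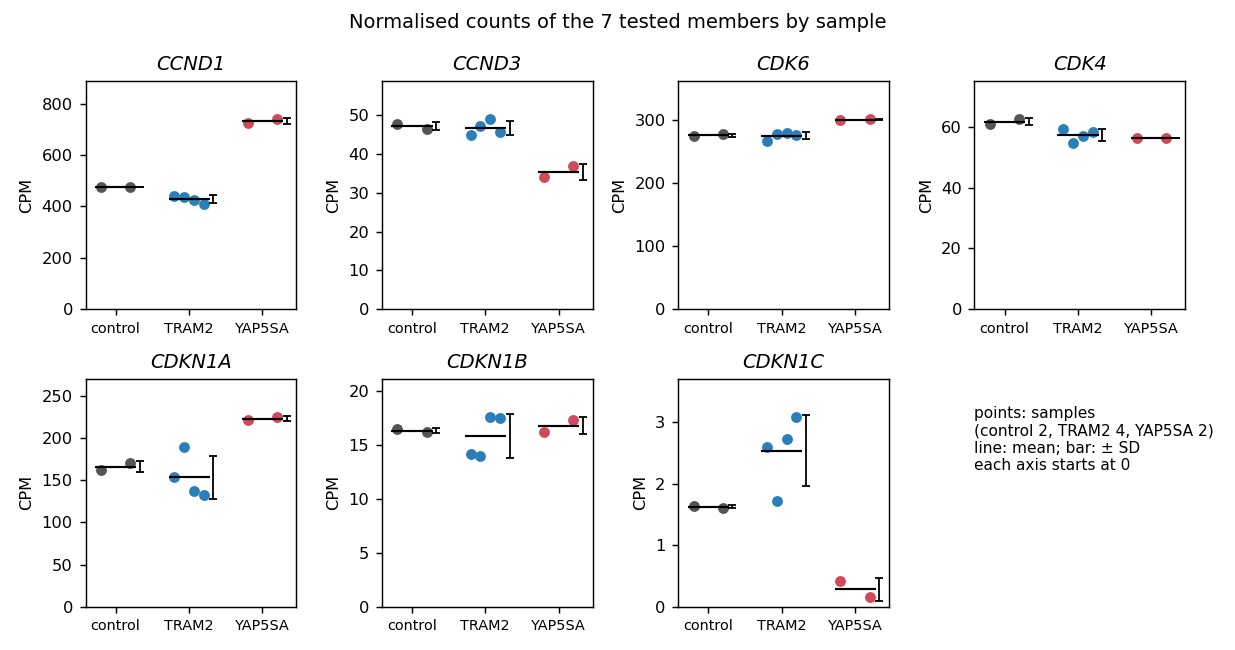
Normalised counts (CPM, linear axis from 0) of the 7 members that passed the filter, by sample. Points are samples (2 control, 4 TRAM2, 2 YAP5SA), lines are means and bars the SD. The 2 YAP5SA samples lay above all others for CCND1, CDK6 and CDKN1A, and below all others for CCND3 and CDKN1C.

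Cyclin D1 was the most abundant member by counts. CCND1 (ENSG00000110092, chromosome 11, 69455924 to 69469242 on the plus strand of GRCh37) was measured at 476.9 and 474.3 CPM in the control samples. In MCF10A-TRAM2 it was measured at 440.0, 437.3, 426.5 and 407.6 CPM in A to D. In MCF10A-YAP5SA it was measured at 723.3 and 740.2 CPM. The YAP5SA samples stood clear of both other groups, and all 4 TRAM2 samples stood below both control samples. Against control the log2 fold change in YAP5SA was 0.62 ± 0.05 (SE, n = 2 and 2; edgeR adjusted p = 1.44e-07), with a 95% interval from 0.51 to 0.73. Against TRAM2 it was 0.77 ± 0.04 (n = 2 and 4; edgeR adjusted p = 1.69e-09).

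For TRAM2 against control the CCND1 difference was -0.15 ± 0.04 on the log2 scale, with an edgeR adjusted p of 0.167, so it was not called although the samples did not overlap. Its 95% interval ran from -0.25 to -0.06. Within run 1 alone, which holds libraries A and B of all 3 groups, the CCND1 difference was 0.63 in YAP5SA against control and -0.11 in TRAM2 against control. Over 17 alternatives the difference of TRAM2 from control lay between -0.19 and -0.109. None called it, although the adjusted p was under 0.05 in at least 1 of them. Nearly all CCND1 counts belonged to the 4307-base transcript CCND1-201, with 18266.59 of the gene's 19226.0 counts in control, 95.4% in TRAM2 and 95.7% in YAP5SA. This protein-coding transcript had 8271.26 and 9114.79 estimated counts in the YAP5SA libraries, against 3906.41 to 5403.0 in the shallower control libraries. LTO1, which overlaps CCND1 on the opposite strand, held 2852.66 counts over the 10 libraries. Its log2 difference was 0.09 ± 0.10 (edgeR adjusted p = 0.484), and the libraries were strand-specific by the study's methods, while the sources used here do not say whether counting used the strand.

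Cyclin D3 lay on the other side. CCND3 (ENSG00000112576, chromosome 6, 41902672 to 42018095, minus strand, GRCh37) stood at 47.82 and 46.44 CPM in control, and at 44.77, 47.08, 48.99 and 45.70 CPM in TRAM2 A to D. In YAP5SA it stood at 33.97 and 36.77 CPM, below every other sample. The log2 difference from control was -0.41 ± 0.07 (n = 2 and 2; edgeR adjusted p = 0.000266) and from TRAM2 -0.40 ± 0.07 (edgeR adjusted p = 0.000132), so it passed the adjusted p and not the fold threshold. TRAM2 and control overlapped, with a difference of -0.01 ± 0.06 (edgeR adjusted p = 0.949). The 2085-base transcript CCND3-203 held 71.8% of the gene's counts in control, 57.3% in TRAM2 and 63.8% in YAP5SA. The split over the 18 CCND3 transcripts with counts is an estimate whose uncertainty the files do not give.

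Cyclin D2 was not detected. CCND2 (ENSG00000118971, chromosome 12, 4378937 to 4414519, plus strand, GRCh37) had 0 counts for each of its 4 transcripts in every library, which allows up to 3 counts a library, or 0.184 to 0.353 CPM. Its antisense gene CCND2-AS1 was also at 0. A readthrough gene on the same strand, AC008012.1, held 445.45 counts over the 10 libraries, from 0.0 to 87.49 in a library. By the GRCh37 annotation this transcript of 3435 bases shares 999 bases with the CCND2-201 transcript and 1711 with exons of TIGAR, the next gene, which had 352.36 to 630.96 counts a library. The other 5494 bases of CCND2-201 lie outside it. From which shared part the readthrough's counts came was not tested.

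With CCND2 at 0, the D cyclin messages were those of CCND1 and CCND3. On the TPM scale (which divides by transcript length before scaling to a common total and so allows levels of different genes to be compared), CCND1 was 71.3% ± 3.01 (SD, n = 2) of the summed D cyclin level in control. It was 66.9% ± 3.13 (n = 4) in TRAM2 and 83.4% ± 1.69 (n = 2) in YAP5SA. The ratio of CCND1 to CCND3 was 2.50 ± 0.37 in control, 2.04 ± 0.28 in TRAM2 and 5.05 ± 0.62 in YAP5SA, and the YAP5SA samples did not overlap the others. Counting protein-coding transcripts alone put the CCND1 share at 82.9%, 80.2% and 90.2% in the same order of groups. These shares are descriptions with no test.

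The kinases moved little. CDK6 (ENSG00000105810, chromosome 7, 92234235 to 92465887, minus strand, GRCh37), which pairs with any D cyclin, stood at 273.4 and 276.9 CPM in control. It stood at 266.8, 276.5, 279.5 and 276.2 CPM in TRAM2 A to D, and at 299.1 and 300.9 CPM in YAP5SA. The YAP5SA samples were the highest of the 8, while control and TRAM2 overlapped. The log2 difference of YAP5SA was 0.12 ± 0.05 from control (edgeR adjusted p = 0.0403) and 0.13 ± 0.04 from TRAM2 (edgeR adjusted p = 0.018), both well inside the fold threshold. TRAM2 and control differed by 0.00 ± 0.04, with a 95% interval from -0.09 to 0.08.

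CDK4 (ENSG00000135446, chromosome 12, 58141510 to 58149796, minus strand, GRCh37), the partner kinase, stood at 60.96 and 62.65 CPM in control. It stood at 59.52, 54.74, 57.10 and 58.45 CPM in TRAM2 A to D, and at 56.51 and 56.52 CPM in YAP5SA. Both control samples were above the others, and YAP5SA lay within the range of TRAM2. The log2 differences were -0.13 ± 0.06 for YAP5SA against control (edgeR adjusted p = 0.104), -0.11 ± 0.05 for TRAM2 against control (edgeR adjusted p = 0.428) and -0.02 ± 0.06 for YAP5SA against TRAM2 (edgeR adjusted p = 0.755). The interval for YAP5SA against control, -0.26 to 0.00, holds no difference as large as the fold threshold. CDK4 overlaps TSPAN31 and MARCHF9 on the opposite strand, which held 1039.64 and 536.83 counts over all libraries.

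Although CDK6 had more counts, CDK4 had the higher level per length. CDK6-201, with 96.2% of the gene's counts in control, is 11612 bases long, whereas the CDK4 counts were spread over 15 transcripts of 228 to 1865 bases. The longest of these, CDK4-201, held only 9.97% of the CDK4 counts in control. The size of the CDK4 share below rests on this split, an estimate whose uncertainty is not known. On the TPM scale CDK4 was 81.9% ± 1.40 (SD, n = 2) of the 2 kinases in control, 80.2% ± 1.95 (n = 4) in TRAM2 and 78.5% ± 1.48 (n = 2) in YAP5SA. The YAP5SA range, 77.46 to 79.55%, overlapped that of TRAM2 and lay below that of control. No test was made of these shares.

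**Figure D2:**
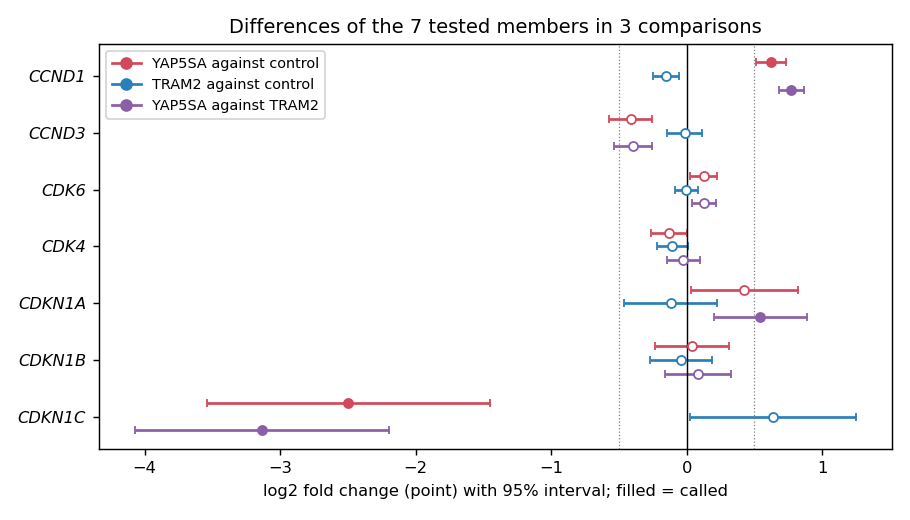
Log2 fold changes of the 7 tested members (points) with 95% intervals in YAP5SA against control, TRAM2 against control and YAP5SA against TRAM2. Filled points passed both thresholds and dotted lines mark the fold threshold of 0.5. CCND1 lay at 0.62 and CDKN1C at -2.50 in YAP5SA against control.

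Among the CIP/KIP inhibitors, CDKN1A was the most abundant. Its product p21 is a main effector of p53 in G1 arrest. CDKN1A (ENSG00000124762, chromosome 6, 36644237 to 36655114, plus strand, GRCh37) stood at 161.4 and 170.3 CPM in control. It stood at 154.1, 189.0, 136.8 and 132.4 CPM in TRAM2 A to D, and at 220.7 and 224.9 CPM in YAP5SA. Both YAP5SA samples exceeded the other 6, while the TRAM2 samples lay on both sides of control and spread the widest. The log2 difference of YAP5SA from control was 0.43 ± 0.16 (n = 2 and 2; edgeR adjusted p = 0.0748), which was not called, with a 95% interval from 0.03 to 0.82. Over 16 alternatives this difference lay between 0.347 and 0.471. None called it, the fold threshold not being reached, although the adjusted p was under 0.05 in at least 1 of them. Against TRAM2, CDKN1A rose in YAP5SA by 0.54 ± 0.14 (n = 2 and 4; edgeR adjusted p = 0.018).

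This last call did not hold under every setting. It was lost in 8 of 16 alternatives, among them run 1 alone, where the log2 difference was 0.37 (edgeR adjusted p = 0.00982), and the fit without TRAM2 D, where it was 0.48 (edgeR adjusted p = 0.0215). Without TRAM2 C it was 0.49, and with either YAP5SA library left out the adjusted p was 0.066 or 0.0783. The TRAM2 libraries A and B, of run 1, were both higher than C and D, of run 2. TRAM2 against control gave 0.06 with the libraries of run 1 (edgeR adjusted p = 0.849) and -0.30 with those of run 2 (edgeR adjusted p = 0.00115), while the pooled difference was -0.12 ± 0.14 (edgeR adjusted p = 0.801). The 2180-base CDKN1A-201 transcript held 74.8% of counts in control, 76.1% in TRAM2 and 76.9% in YAP5SA. The opposite-strand RNA DINOL within the gene had 15.0 counts in all.

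The p27 gene CDKN1B did not pass any threshold. CDKN1B (ENSG00000111276, chromosome 12, 12838432 to 12875303, plus strand, GRCh37) stood at 16.48 and 16.16 CPM in control, at 14.15, 13.94, 17.62 and 17.55 CPM in TRAM2 A to D, and at 16.23 and 17.34 CPM in YAP5SA. The groups overlapped, and within TRAM2 the libraries A and B lay below control and C and D above it. The log2 differences were 0.04 ± 0.13 in YAP5SA against control (95% interval -0.23 to 0.31), -0.04 ± 0.11 in TRAM2 against control (-0.27 to 0.19) and 0.08 ± 0.11 in YAP5SA against TRAM2 (-0.16 to 0.33). GPR19, on the opposite strand, held 222.0 counts over all libraries.

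CDKN1C showed the largest difference of all members on the lowest counts. Its product p57 is encoded in the imprinted domain of 11p15.5 (ENSG00000129757, chromosome 11, 2904443 to 2907005, minus strand, GRCh37). The control samples held 36 and 30 counts, or 1.648 and 1.616 CPM. TRAM2 A to D held 35, 25, 45 and 49 counts, or 2.607, 1.726, 2.725 and 3.093 CPM. The YAP5SA libraries held 5 and 2 counts, or 0.4204 and 0.1548 CPM. The YAP5SA samples were lower than all others, and every TRAM2 sample was higher than both summed control samples. Control and TRAM2 overlapped with the libraries kept separate, where control A to D stood at 1.863, 1.092, 1.397 and 2.227 CPM and TRAM2 B at 1.735 CPM.

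In YAP5SA CDKN1C fell by 2.50 ± 0.49 on the log2 scale from control (n = 2 and 2; edgeR adjusted p = 0.000653) and by 3.13 ± 0.44 from TRAM2 (n = 2 and 4; edgeR adjusted p = 2.99e-05). Summed over libraries, 66 control counts and 7 YAP5SA counts gave a depth-scaled ratio of 6.13, with an exact 95% counting interval from 2.81 to 15.8, and TRAM2's 154 counts a ratio of 9.66 over YAP5SA (4.58 to 24.4). The ratio of TRAM2 over control was 1.58 (1.17 to 2.14). These intervals cover counting error only. The difference between TRAM2 and control, 0.64 ± 0.29 with a 95% interval from 0.02 to 1.25 and an edgeR adjusted p of 0.382, was not called. The 1771-base transcript CDKN1C-204 held 67.2% of the gene's counts in control and 81.7% in TRAM2, and had no count in either YAP5SA library. There, 5.21 of the 7 estimated counts belonged to CDKN1C-205, a retained-intron transcript, which had 4.68 counts in control.

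In control the order of the levels on the TPM scale was CCND1 (91.1 ± 1.24, SD, n = 2), CDK4 (70.3 ± 2.81), CDKN1A (62.0 ± 1.70), CCND3 (36.9 ± 5.90), CDK6 (15.51 ± 0.85), CDKN1B (6.61 ± 0.15) and CDKN1C (0.65 ± 0.04). In TRAM2, CDK4 (64.2 ± 3.81, n = 4) and CDKN1A (57.7 ± 7.78) did not differ beyond their spread. In YAP5SA, CDKN1A (78.8 ± 4.12, n = 2) stood above CDK4 (60.1 ± 0.06). Part of the TPM of CCND1, CCND3, CDK4 and CDKN1A came from short transcripts that code for no protein. With protein-coding transcripts alone, CDK4 was at 54.5 ± 3.12, CCND1 at 50.5 ± 1.22 and CDKN1A at 45.6 ± 4.24 TPM in control. In TRAM2, CDK4 was at 51.5 ± 3.74 and CCND1 at 46.0 ± 2.15 TPM. CCND1 led in YAP5SA at 76.9 ± 2.43 TPM, and CCND3 (10.4 ± 0.52 in control) lay below CDK6 (13.9 ± 0.20). The place of CCND1 and CCND3 in the order therefore depends on which transcripts are counted.

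No INK4 member was detected. CDKN2A (ENSG00000147889, chromosome 9, 21967751 to 21995300, minus strand, GRCh37), which codes for p16INK4a and, from an upstream start and another reading frame, for ARF, had 0 counts over 14 transcripts in all 10 libraries. CDKN2B (ENSG00000147883, 22002902 to 22009304 on the same strand), which codes for p15INK4b, had 0 counts over its 3 transcripts. Out of 125385605 counts in all libraries together this allows up to 3 counts, or 0.0239 CPM, for each gene. The divergent transcript CDKN2A-DT was likewise at 0. The antisense RNA CDKN2B-AS1, which overlaps the start of CDKN2A and all of CDKN2B, held 42.16 counts over the 10 libraries, 1.0 to 9.79 a library, in 5 of its 28 transcripts. It spans 21994138 to 22128102, so most of it lies beyond both members. From which part its counts came was not tested.

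The genes around them were detected to different degrees. MTAP, the methionine salvage enzyme gene next to CDKN2A, had 2.0 to 9.95 counts a library and 58.36 in all. Its mean of 0.45 CPM was low, where 3 counts equal 0.184 to 0.353 CPM in a library. Of its counts 45.31 belonged to the 7557-base transcript MTAP-209. KLHL9 and FOCAD, farther off on the same side, held 1805.0 and 1601.99 counts, and MIR31HG between them and MTAP held 152.0. On the other side DMRTA1 held 36.0. On a wider list of chromosome 9 genes on both sides, 10 passed the filter. Of these, 3 rose and 3 fell in YAP5SA against control, where 29.4% of all genes tested were called. None was called in TRAM2 against control. HAUS6 and DENND4C on this list start at 19053139 and 19230433 of GRCh37, farther from CDKN2A than FOCAD. HAUS6 (-0.61 ± 0.05) and DENND4C (-0.61 ± 0.07) fell, and FOCAD (0.56 ± 0.12) and KLHL9 (0.52 ± 0.11) rose, with edgeR adjusted p-values from 3.66e-07 to 0.00126. RNA counts do not show whether the DNA of a gene without counts is present.

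**Figure D3:**
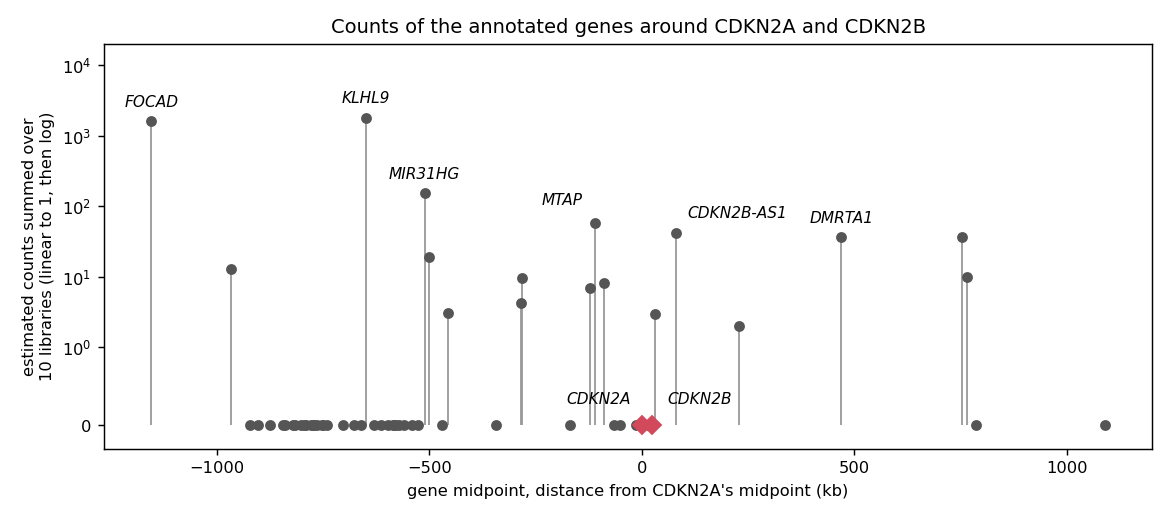
Estimated counts summed over the 10 libraries for annotated genes within 1 Mb of CDKN2A and CDKN2B (axis linear to 1, then logarithmic), by distance of each gene's midpoint from that of CDKN2A. Both members (diamonds) stood at 0, MTAP at 58.36, CDKN2B-AS1 at 42.16 and KLHL9 at 1805.0.

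The start regions of the INK4 locus and of the expressed CDKN1A gene are shown because they mark where the absent and present messages would begin. RefSeq's promoter table (build GRCh38.p14, 250 bases before to 50 after each start) held 7 of the 10 members in 11 start sites, and CCND1, CCND2 and CDKN1C were not among them. Capitals mark the GC box, GGGCGG or its reverse complement CCGCCC, the letters bound by SP1-type factors. The sequences read 5′ to 3′ on the strand of the gene. The ARF start of CDKN2A spans chr9:21995275-21995574, its p16INK4a start chr9:21974808-21975107 and the CDKN2B start chr9:22009256-22009555, each on the minus strand, and the CDKN1A start chr6:36678464-36678763 on the plus strand.
CDKN2A, ARF start: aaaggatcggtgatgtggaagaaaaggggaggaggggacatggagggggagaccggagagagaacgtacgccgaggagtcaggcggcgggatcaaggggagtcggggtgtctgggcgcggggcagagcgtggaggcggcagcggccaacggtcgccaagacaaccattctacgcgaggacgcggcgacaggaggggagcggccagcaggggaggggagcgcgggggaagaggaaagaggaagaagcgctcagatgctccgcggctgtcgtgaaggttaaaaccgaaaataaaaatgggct
CDKN2A, p16INK4a start: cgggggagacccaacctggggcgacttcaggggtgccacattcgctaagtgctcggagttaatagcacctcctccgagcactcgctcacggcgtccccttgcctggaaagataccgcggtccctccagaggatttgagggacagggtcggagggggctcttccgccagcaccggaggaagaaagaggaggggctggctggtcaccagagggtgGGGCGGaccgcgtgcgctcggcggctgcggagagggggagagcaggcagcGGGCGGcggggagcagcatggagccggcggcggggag
CDKN2B: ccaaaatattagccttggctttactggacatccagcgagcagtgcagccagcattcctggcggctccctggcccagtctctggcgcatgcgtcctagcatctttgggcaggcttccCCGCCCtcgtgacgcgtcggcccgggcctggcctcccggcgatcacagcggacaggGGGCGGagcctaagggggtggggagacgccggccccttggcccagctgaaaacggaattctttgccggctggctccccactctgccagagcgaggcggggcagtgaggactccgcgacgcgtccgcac
CDKN1A: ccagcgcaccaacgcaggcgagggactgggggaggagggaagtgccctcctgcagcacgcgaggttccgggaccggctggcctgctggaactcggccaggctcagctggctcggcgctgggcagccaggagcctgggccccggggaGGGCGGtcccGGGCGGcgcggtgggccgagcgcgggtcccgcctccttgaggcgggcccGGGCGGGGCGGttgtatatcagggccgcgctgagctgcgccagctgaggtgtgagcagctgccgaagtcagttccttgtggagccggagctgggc

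The GC box occurred in 8 of the 11 member start regions, where 45.0% of all 35116 regions of this length held it. The ARF start had none, the p16INK4a start and CDKN2B 2 each, and CDKN1A 4, of which 2 overlap by their last and first base. The TEAD motif GGAATG, searched on both strands, was found in 2 of the 11 (CDKN2B and 1 of the CCND3 starts), against 4928 of all 35116 regions. The AP-1 motif TGANTCA was found in none, against 7.71% of all regions. These matches describe letters in short windows and not sites in use.

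The other genes named as CDK inhibitors did not pass the thresholds. CDKN2C, CDKN2D and CDKN3 were all expressed and none was called in any of the 3 comparisons. CDKN2C, the p18INK4c gene and so an INK4 inhibitor that MCF10A does express, stood at 15.2 ± 0.00 CPM in control (SD, n = 2), 15.1 ± 0.78 in TRAM2 (n = 4) and 16.4 ± 0.67 in YAP5SA (n = 2), with a log2 difference of 0.11 ± 0.10 in YAP5SA against control (edgeR adjusted p = 0.413). CDKN3, a phosphatase that acts on CDK2, differed by -0.14 ± 0.11 (edgeR adjusted p = 0.313).

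Downstream of the D cyclin kinases, 13 pocket protein and E2F genes were tested, and in YAP5SA against control 2 rose, 1 fell and 10 were not called, with a median log2 fold change of -0.20. Over all genes tested 29.4% were called there (15.3% higher and 14.1% lower). E2F2, an activator, fell by 1.65 ± 0.15 (24.1 CPM in control, 7.71 in YAP5SA; edgeR adjusted p = 3.51e-07). The repressor E2F7 rose by 0.55 ± 0.10 and TFDP2, a dimer partner of E2F factors, by 0.62 ± 0.09 (edgeR adjusted p = 0.000889 and 7.83e-05). RB1, the main substrate, singled out with its value known, was not called at 0.27 ± 0.06 (edgeR adjusted p = 0.0022). The other pocket protein genes, RBL1 and RBL2, went the other way at -0.38 ± 0.06 and -0.47 ± 0.06 (edgeR adjusted p = 7.85e-05 and 1.22e-05). These genes passed the adjusted p and not the fold threshold.

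Of 8 genes for cyclin E, cyclin A, CDK2 and the CDK-activating kinase, 1 rose and 2 fell in YAP5SA against control. Over all genes tested the share called was 29.4%. Cyclin E1 (CCNE1) fell by 0.74 ± 0.09, from 22.5 to 13.5 CPM (edgeR adjusted p = 1.2e-05), and the CDK phosphatase gene CDC25A fell by 0.56 ± 0.08. CCNH, the cyclin of the CDK-activating kinase, rose by 1.21 ± 0.08, from 25.5 to 58.9 CPM (edgeR adjusted p = 1.99e-08). Of 12 E2F target genes of S phase, 1 rose, 2 fell and 9 were not called, with a median of -0.37, beside the same 29.4% over all genes. PCNA, the replication clamp, fell by 0.60 ± 0.05 (412 to 273 CPM), MCM4 of the replicative helicase fell by 0.57 ± 0.05 (502 to 338 CPM), and TYMS, which makes thymidylate, rose by 0.64 ± 0.05 (181 to 281 CPM).

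Since CDKN1A is a p53 target, 23 genes of p53 and its targets were examined. In YAP5SA against control 6 rose, 1 fell and 16 were not called, with a median of 0.24. Over all genes tested 29.4% were called there (15.3% higher and 14.1% lower). POLH, a translesion polymerase, rose by 0.71 ± 0.07 (34.7 to 56.7 CPM), the death receptor gene FAS by 0.65 ± 0.07 (57.2 to 89.8 CPM) and the RNA-binding protein gene ZMAT3 by 0.79 ± 0.09 (105 to 181 CPM). The cytokine gene GDF15 fell by 1.83 ± 0.19, from 23.8 to 6.67 CPM. MDM2, the p53 ligase and itself a target, was not called at 0.02 ± 0.10. GADD45A and TP53INP1 rose by 1.73 and 1.45, and these 3 genes were singled out with their values known. In YAP5SA against TRAM2, 7 rose and 1 fell, where 29.4% of all genes were called (14.9% higher and 14.6% lower).

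Of 11 factors of protein turnover for D cyclins and CIP/KIP proteins, 2 rose and 1 fell in YAP5SA against control, where 29.4% of all genes tested were called. SKP2, the F-box protein that marks p27 for destruction, rose by 1.42 ± 0.07, from 38.8 to 104 CPM (edgeR adjusted p = 4.26e-10). FBXW8, an F-box protein described for cyclin D1, rose by 1.12 ± 0.09 (13.4 to 29.0 CPM), and FBXO4, also described for cyclin D1, fell by 0.70 ± 0.10 (23.3 to 14.4 CPM). The YAP5SA samples and the control samples of all 3 did not overlap. Of 6 FOXO and SMAD factors, 5 were not called, beside the same 29.4% over all genes. The remaining factor, FOXO1, which can drive CDKN1B, fell by 0.84 ± 0.09 (31.2 to 17.5 CPM; edgeR adjusted p = 3.13e-06). In TRAM2 against control, where 0.0571% of all genes were called, no gene of these 7 lists was called by edgeR. In each list the median lay between -0.13 and 0.04.

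**Figure D4:**
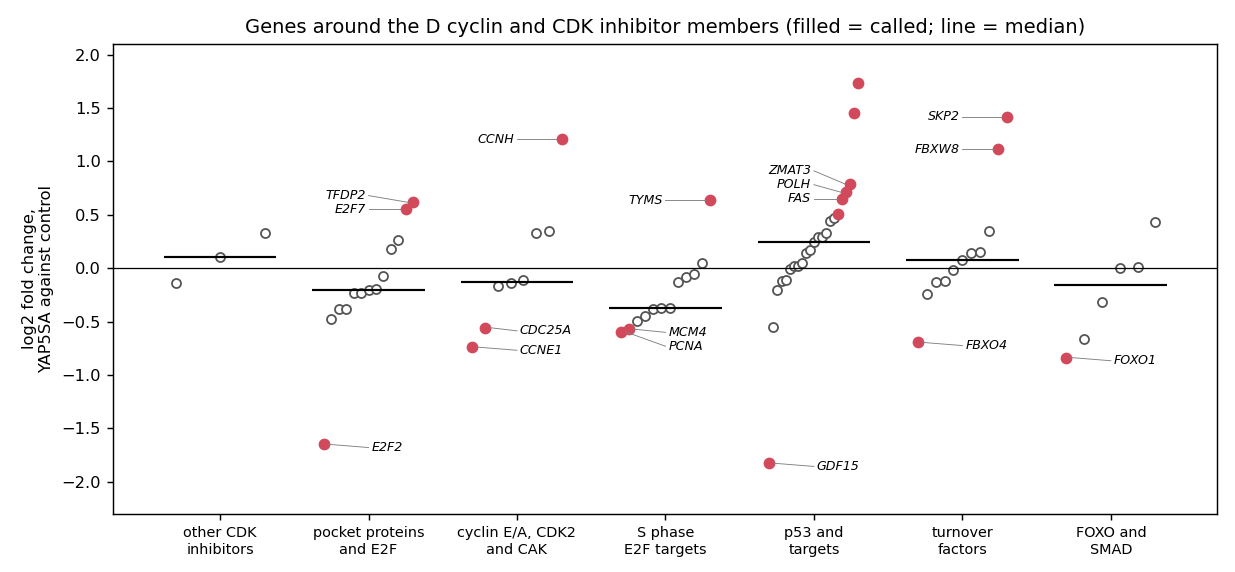
Log2 fold changes in YAP5SA against control of the tested genes in 7 lists around the members. Filled points passed both thresholds, open points did not, and lines are list medians. Of the labelled genes SKP2 stood highest at 1.42 and GDF15 lowest at -1.83. The 2 highest points of the p53 list, not labelled, are GADD45A and TP53INP1.

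Genes beside the called members on the chromosome were counted too, against a share of 29.4% of all genes called in YAP5SA against control (15.3% higher and 14.1% lower). Of 6 genes of 11q13 near CCND1 that were tested, none rose in YAP5SA against control, and ANO1, a chloride channel gene, fell by 4.06 ± 0.23 (86.3 to 5.14 CPM; edgeR adjusted p = 3.42e-06). Of 7 tested genes of 11p15.5 near CDKN1C, none fell and IGF2, a growth factor gene of the same imprinted region, rose by 5.19 ± 0.29 (0.529 to 19.3 CPM; edgeR adjusted p = 2.5e-09). The control samples held IGF2 at only 0.412 to 0.646 CPM, where 3 counts equal 0.184 to 0.353 CPM in a library. The size of its rise therefore rests on few control counts. KCNQ1OT1, the non-coding RNA of the imprinting centre next to CDKN1C, was not called at 0.03 ± 0.12 and was singled out with its value known.

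The genes whose pattern over the 8 samples was most like that of CCND1, among 10853 genes with a mean of at least 5 CPM, were MGAT1, DTNBP1 and KCTD15. Their root mean square distances from CCND1 in centred log2 CPM were 0.038, 0.0413 and 0.0485, where the SD of CCND1 itself over the samples was 0.343. MGAT1 stood at 84.1, 79.5 and 133 CPM in control, TRAM2 and YAP5SA. For CDKN1C the nearest were TEF, NEBL and SULT1B1, at distances of 0.285, 0.303 and 0.312 with an SD of 1.25 for CDKN1C. TEF stood at 7.20, 7.15 and 1.06 CPM in the same order. The likeness is a description over 8 samples, most of it set by the difference between YAP5SA and the rest.

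Among markers of other cell types, CD3E and VWF were at 0 in every sample. Of 3 leukocyte markers CD68 alone was above the filter, at a mean of 38.3 CPM in control and 52.1 CPM in YAP5SA, and the defining marker PTPRC stood at no more than 0.168 CPM in any sample. Of 3 endothelial markers PECAM1 passed the filter, at 7.69 to 7.70 CPM in control, 9.16 to 13.9 in TRAM2 and 0.155 to 0.336 in YAP5SA. The 5 fibroblast markers summed to between 1.47 and 4.26 CPM in all samples, with COL1A1 at 3.30 CPM in control and 0.772 in YAP5SA.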

How the data were processed

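RNA of the 10 libraries was processed by the authors: adapters were removed with cutadapt and transcripts were quantified with Salmon, whose versions, transcript build and strand setting the sources used here do not give. The deposited files hold, per transcript, an estimated count, a TPM and an effective length. The estimated counts, as deposited, were summed per gene and rounded. TPM, as deposited, was summed per gene and used only to compare levels between genes. Gene positions were taken from GENCODE's GRCh37 annotation by gene identifier, and start-site sequences from RefSeq (GRCh38.p14).

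Control libraries between which a chi-square test found no difference beyond sampling noise were summed (genes with counts whole within 0.001 and a pair mean of at least 50). Over all genes of that level, counts that are not whole included, these pairs did differ, and a fit of the 10 separate libraries was an alternative. The 8 samples were fitted together in edgeR 4.0.16 (R 4.3.3) with filterByExpr, TMM normalization, robust glmQLFit and glmQLFTest, without covariates, and 15768 genes were tested. DESeq2 1.42.0 was an alternative, as were other settings described below. The SE is the log2 fold change over the square root of its F. A limit for 0 counts is 3 counts. On simulated counts for TRAM2 against control (2 fits, at least 15423 genes), 93.2% of genes changed by 1 on the log2 scale and 97.7% of those changed by 2 were called. The shares were 85.6% and 98.5% for YAP5SA against control, and 87.1% and 98.5% for YAP5SA against TRAM2. Changed genes were drawn from those above the mean level of CDKN1C, so these shares do not cover it. Nor do they cover changes under 1 on the log2 scale, where the differences of all other tested members lay.

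Members were given by symbol, and all were described. From each list up to 4 genes called in YAP5SA against control with the smallest adjusted p were named, or where none was called the 2 with the highest mean CPM. The other genes named by rule were the 3 most similar in pattern to each called member, and genes overlapping a member. The members, lists and tests were chosen with earlier results of these data known.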

Additional observations from a re-analysis of the deposited data

How the results depend on the processing

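CCND1 and CDKN1C kept their calls against control in all 16 alternatives run for each, at log2 fold changes of 0.564 to 0.649 and -3.32 to -1.93. By adjusted p alone, 7680 genes and 4 members were called in YAP5SA against control, 23 genes in TRAM2 against control, and 8078 genes and 5 members in YAP5SA against TRAM2. Leaving out 1 sample gave 4211 to 4735 genes in YAP5SA against control. In TRAM2 against control it gave 3 to 39 genes where 9 were called, with 3 without control sample 2, 19 without TRAM2 A, 39 without TRAM2 B and 6 without YAP5SA A. The count there was also 67 with the 10 libraries separate, 19 with DESeq2, 136 with no filter, 25 and 97 within run 1 and run 2, and 2 with length-scaled TPM counts, and no member was among the calls in any of these. Fewer samples in each run and more genes without the filter are part of these settings, and otherwise the cause was not tested.

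A pairing of samples by letter was not established. Same-letter libraries of 2 groups correlated at -0.026 to 0.035 in their deviations. Of 8 control and TRAM2 libraries 4 were closest to their own letter, a count that cannot decide because no chance level was computed for it. With the letter as a replicate block over 10 libraries, 4493, 69 and 4283 genes were called in YAP5SA against control, TRAM2 against control and YAP5SA against TRAM2, and CDKN1A in the last lost its call at 0.465. The block gave CDK6 in TRAM2 against control a log2 difference of 0.0044.

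Differences near 0 changed sign. CDKN1B in YAP5SA against control was -0.0067 with no filter and -0.0375 with length-scaled TPM counts, and -0.0021 to 0.0981 with a sample left out. In TRAM2 against control, CCND3 was 0.0095 in run 2 and 0.0972 with length-scaled TPM counts, and -0.039 to 0.0114 with a sample left out. CDK6 was 0.0048 with 10 libraries, 0.003 with DESeq2, 0.0081 with RLE normalization, 0.0221 in run 2 and 0.0342 with length-scaled TPM counts, and -0.0093 to 0.0119 with a sample left out. CDKN1A was 0.0603 in run 1 and CDKN1B 0.1483 in run 2, the latter -0.0961 to 0.0178 with a sample left out. CCND3 in YAP5SA against TRAM2 passed both thresholds with length-scaled TPM counts alone, at -0.5673. With protein-coding transcripts alone the CCND1 share of D cyclins was 82.92, 80.22 and 90.23% in control, TRAM2 and YAP5SA, and the CDK4 share was 79.72% in control and 75.39% in YAP5SA. Low counts limit CDKN1C most, with 7 counts in YAP5SA.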
